A study of Mus musculus with 6 samples.

Results

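The Il12b locus was defined as the CTBP2 sites on chromosome 11 whose centre lies between 44.10 and 44.45 Mb in the deposited site table. That rule took 28 of 62236 sites, and all 28 were described. CTBP2 is a transcriptional co-regulator, best known as a co-repressor, that is brought to chromatin by DNA-binding factors. It was profiled by chromatin immunoprecipitation and sequencing (ChIP-seq), with 1 antibody, in bone marrow-derived macrophages, cells grown from marrow in medium conditioned by L929 fibroblasts. All libraries came from wildtype male C57BL6/N mice aged 6 to 12 weeks. The vehicle group of 3 libraries received PBS, and the LPS group of 3 libraries received 100 ng/ml lipopolysaccharide, a bacterial cell wall component sensed by Toll-like receptor signalling, for 3 h. Cells were fixed with 2 mM DSG and then 1% formaldehyde, and chromatin was sheared to 500 to 1000 bp, which limits how finely a site can be located. Replicates are numbered in the labels, with no word on whether animals or cultures differed between them, so every p-value reflects library spread that may be technical. ChIP-seq signal gives no expression level, so the identity of the cells could not be checked against marker genes here.

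Il12b encodes the p40 chain, the subunit that interleukin-12 and interleukin-23 share. Interleukin-12 pairs it with the product of Il12a and interleukin-23 with that of Il23a. Macrophages and dendritic cells switch the gene on after Toll-like receptor stimulation, through NF-kB family members, C/EBP factors, AP-1 and interferon regulatory factors acting at the promoter and at an upstream enhancer. Interleukin-12 is known for driving interferon-gamma production by T and NK cells.

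The table names a gene for each site on coordinates that differ from those of the sites, so sites were placed by a measured offset. Gene starts as the table lists them, within 8 Mb of Il12b and without those in the nearest 200 kb, lined up with site centres at a shift of 109.2 kb. At that shift 29 of 40 gene starts had a site centre within 500 bp, against 4 with no shift and at most 10 at any shift elsewhere up to 1 Mb. Nearly as many matched between 109.0 and 109.4 kb, so distances below are good to about 0.2 kb. The start of Il12b placed in this way is called the Il12b start, and each site carries the distance of its centre from it, negative upstream. RefSeq (GRCm38.p6) lists 3 protein-coding genes over the same stretch. Il12b is followed by Ublcp1, which encodes a phosphatase that acts on the proteasome, and by Rnf145, which encodes a ubiquitin ligase of the endoplasmic reticulum. No other gene of that annotation was placed between the Il12b start and the upstream end of the window. The 28 sites run from -50.2 kb to 146.4 kb. Positions printed for sites are those of the table, which does not name its build and is read here as GRCm39, one of the builds in the submitters' processing notes.

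The promoter sequences of Il12b and of its neighbour Ublcp1 are shown because the CTBP2 sites lie differently around them. No site covered the Il12b start: the nearest was 1001 bp wide with its centre at -1.0 kb. A site centred at 70.5 kb covered the start of Ublcp1, which was placed at 70.65 kb on the opposite strand. Both runs are the 250 bases before the start, 5′ to 3′, from RefSeq in build GRCm38.p6, which is not the build of the site positions. The first is chr11:44399813-44400062 on the plus strand and the second chr11:44470549-44470798 on the minus strand.
Il12b: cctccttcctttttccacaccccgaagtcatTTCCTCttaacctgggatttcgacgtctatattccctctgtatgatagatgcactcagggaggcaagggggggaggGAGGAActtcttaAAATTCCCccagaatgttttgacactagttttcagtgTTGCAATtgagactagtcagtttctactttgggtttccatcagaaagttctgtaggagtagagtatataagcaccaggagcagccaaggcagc
Ublcp1: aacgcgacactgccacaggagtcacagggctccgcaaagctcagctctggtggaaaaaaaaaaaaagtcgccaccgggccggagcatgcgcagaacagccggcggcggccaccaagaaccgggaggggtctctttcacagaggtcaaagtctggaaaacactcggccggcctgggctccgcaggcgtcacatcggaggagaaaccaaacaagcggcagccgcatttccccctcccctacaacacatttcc

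Capitals mark letters that match a searched motif on either strand. In the Il12b promoter these were TTCCTC and GAGGAA, the PU.1 motif GAGGAA beginning 219 and 143 bases before the start, AAATTCCC, the NF-kB half-site GGGAATTT read on the other strand, at 130 bases before it, and TTGCAAT, a C/EBP core, at 93 bases before it. Over all 32851 RefSeq promoters of 300 bases (250 before to 50 after the start), GGGAATTT was present in 0.947%, TTGCAAT in 2.22% and GAGGAA in 28.3%. The half-site and the core were added to the search after the promoter had been looked at. The longer NF-kB motif, GGG and CC with 5 letters between them (in 50.8% of promoters), AP-1 TGANTCA (7.81%), C/EBP TTNNGNAA (40.7%), the interferon-stimulated response element, GAAA and GAAA with 2 letters between them (3.44%), and the ZEB motif CACCTG (20.2%) had no match in the 300 bases of Il12b. No searched motif matched in the Ublcp1 bases printed, and the longer NF-kB motif matched once in the 50 bases after its start. The matches in capitals do not overlap. A match is a description of letters and not a measured site.

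Depth was similar across libraries. If the smallest step of each deposited column is 1 read, the sites held 3243258 to 4553179 reads per library, and the median site held 39 to 55. The deposited values differed in level, with library medians from 35.5 to 73.0, and were scaled here to a common median of 46.9, so a scaled value of 46.9 is a typical site. Across sites, which are not independent, the correlation of scaled log2 values within a group was 0.890 to 0.932.

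Most of the locus gained CTBP2 after LPS. Of the 28 sites, 16 rose and 2 fell at a limma adjusted p under 0.05, on scaled log2(value + 1), with adjustment over all 62236 sites. Over all sites 16.1% rose and 13.5% fell. The 3 LPS libraries were all higher than the 3 vehicle libraries at 19 of the 28 sites and all lower at 2, against 21.6% and 20.6% of all sites. The median log2 fold of the 28 sites was 0.63, and that of all sites was -0.02. Scaling to a common median holds the value for all sites near 0. Gains and losses here are therefore relative to the typical site, and a change shared by all sites would not show. Summed over the 28 sites, the scaled signal was 1379, 1406 and 1226 in the vehicle libraries and 2113, 2085 and 2193 in the LPS libraries, a ratio of means of 1.59. The plot of signal along the locus shows where the gains lie. Of the 16, 8 fall between -50.2 and 5.5 kb around the Il12b start, and 6 between 76.6 and 116.4 kb, in the stretch from Ublcp1 to Rnf145.

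**Figure D1:**
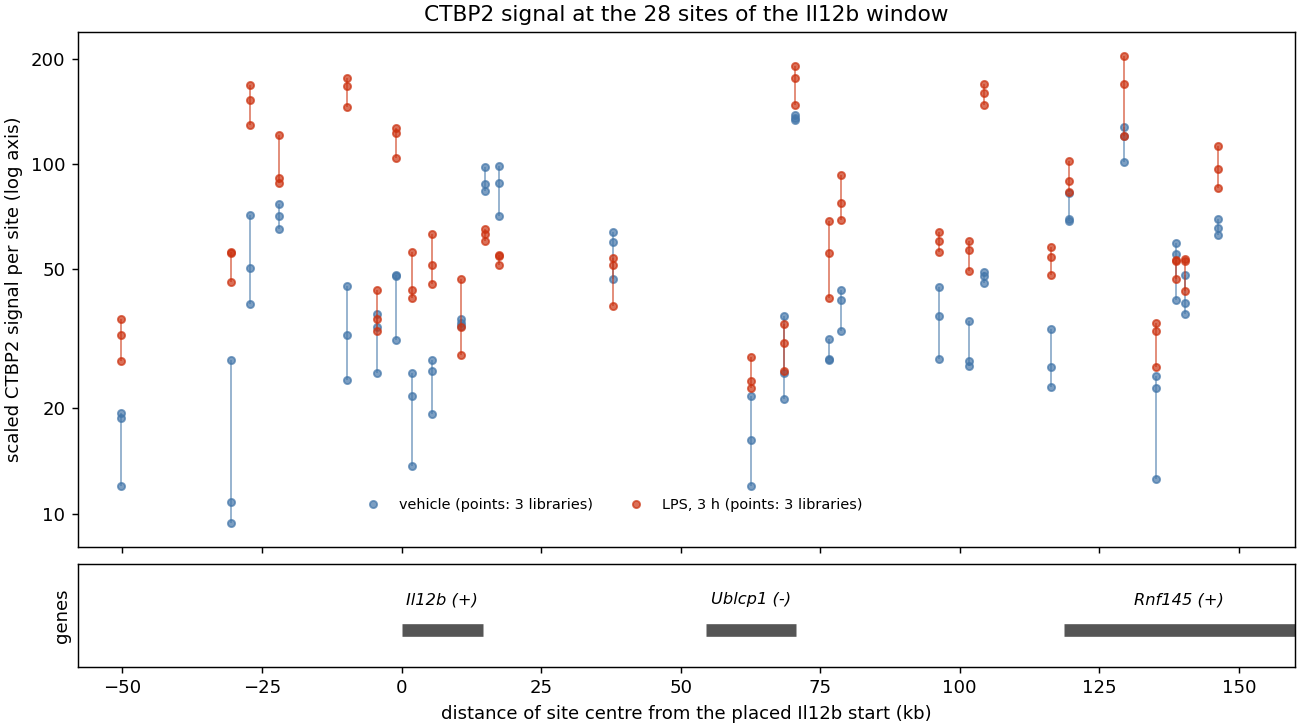
Scaled CTBP2 signal (log axis) in each of the 3 vehicle and 3 LPS libraries at the 28 sites, by distance in kb from the placed Il12b start, with vertical lines from the lowest to the highest library of a group and gene bodies drawn below (Rnf145 runs past the right edge). All LPS points stand above the vehicle points at 6 of 7 sites upstream of Il12b and at all 6 sites between Ublcp1 and Rnf145, and below them at the 2 sites just past the end of Il12b. Over all 62236 sites, all LPS libraries were above at 21.6% and below at 20.6%.

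The upstream stretch held 7 sites, of which 6 rose (against 16.1% of all sites) and 1, at -4.3 kb, did not pass the test. The site with the smallest adjusted p in the locus was at -9.8 kb (chromosome 11, 44280603 to 44281603). Its scaled signal, by replicate number, was 44.6, 32.4 and 24.1 in vehicle and 176, 146 and 167 in LPS. Every LPS library was more than 3 times the highest vehicle library. On the reading of 1 step as 1 read, these were 39, 38 and 20 reads in vehicle and 161, 171 and 185 in LPS. The mean went from 33.7 ± 10.4 to 163 ± 15.3 (SD, n = 3 each). By limma the log2 fold was 2.28, or 4.85-fold (SE 0.18, adjusted p = 3.1e-11). Only 149 of the 62236 sites had a larger log2 fold. In vehicle this site had rank 17 of the 28 and percentile 28.6 of all sites, and in LPS rank 3 and percentile 96.7.

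Farther upstream a pair of sites rose from different starting levels. The site at -27.1 kb (44263307 to 44264307) had 50.4, 71.7 and 39.7 in vehicle and 168, 153 and 129 in LPS. It was already near the typical level before LPS, with a mean of 53.9 ± 16.3, and reached 150.0 ± 19.7 (SD, n = 3 each), and limma put the log2 fold at 1.49 (SE 0.18, adjusted p = 1.46e-07). The site at -30.5 kb (44259817 to 44260817) had 27.5, 9.38 and 10.8 in vehicle and 45.8, 55.5 and 56.0 in LPS. Its vehicle mean of 15.9 ± 10.1 was the lowest of the 28 and rose to 52.4 ± 5.70 (SD, n = 3 each), and limma put the log2 fold at 1.81 (SE 0.30, adjusted p = 2.95e-05). The vehicle values there rest on 24, 11 and 9 reads. The groups did not overlap at either site.

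Closer to the gene, the site at -1.0 kb (44289391 to 44290391) is the one nearest to the promoter printed above. It had 48.1, 47.8 and 31.3 in vehicle and 127, 104 and 123 in LPS, so that each LPS library stood at more than 2 times the highest vehicle library. The mean rose from 42.4 ± 9.61 to 118 ± 12.0 (SD, n = 3 each), and limma put the log2 fold at 1.47 (SE 0.18, adjusted p = 7.13e-08). Between it and the -9.8 kb site, the site at -4.3 kb had 25.2, 34.1 and 37.3 in vehicle and 43.7, 33.3 and 36.1 in LPS. The groups overlapped there, and limma gave a log2 fold of 0.23 (SE 0.22, adjusted p = 0.454).

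The sites at -9.8 and -1.0 kb were compared within each library, where the scaling cancels. The first had the smallest adjusted p of the locus, and the second lay nearest the Il12b start. Because the first was picked for its change in these same libraries, a shift toward it was favoured by the choice. The log2 ratio of the first to the second was -0.10, -0.55 and -0.37 in vehicle and 0.47, 0.48 and 0.44 in LPS. The order of both sites turned: -1.0 kb carried more signal in all 3 vehicle libraries and -9.8 kb in all 3 LPS libraries. The mean ratio moved by 0.80 on the log2 scale, from -0.34 ± 0.22 to 0.46 ± 0.02 (SD, n = 3 each). A two-sided exact permutation test gave p = 0.1, the smallest that this test can give for 3 against 3 libraries, so it cannot pass 0.05 here.

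Both remaining upstream sites rose and were less stable. The site at -50.2 kb (log2 fold 0.91, SE 0.30, limma adjusted p = 0.0196) lost its call without vehicle replicate 3 (0.70), LPS replicate 2 (0.90) or LPS replicate 3 (0.82). The site at -21.9 kb (log2 fold 0.48, SE 0.16, limma adjusted p = 0.0216) lost it without vehicle replicate 2 (0.49, adjusted p = 0.0507) or LPS replicate 3 (0.34). The -21.9 kb site had the highest vehicle mean upstream of the gene, 70.8 ± 5.86 (SD, n = 3), and a smaller fold than its neighbours at -27.1 and -9.8 kb.

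Inside the body of Il12b, placed from 0 to 14.61 kb, 3 sites were measured and 2 rose, against 16.1% of all sites. The site at 2.0 kb (44292331 to 44293331) had 25.2, 13.6 and 21.7 in vehicle and 41.5, 43.5 and 56.0 in LPS, and limma put the log2 fold at 1.21 (SE 0.24, adjusted p = 0.000261). The site at 5.5 kb (44295835 to 44296835) had 27.5, 25.6 and 19.3 in vehicle and 51.3, 45.2 and 63.2 in LPS, and limma put the log2 fold at 1.11 (SE 0.21, adjusted p = 0.00014). The groups did not overlap at either. Both were weak before LPS, at percentiles 5.41 and 10.5 of all sites, and about typical after it, with means of 47.0 ± 7.83 and 53.2 ± 9.13 (SD, n = 3 each). Toward the end of the gene, at 10.7 kb, the means were 35.1 ± 0.89 and 36.5 ± 9.50 (SD, n = 3 each) and limma gave a log2 fold of 0.02 (SE 0.21, adjusted p = 0.951).

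Just past the end of the gene the direction was the opposite. The site at 17.5 kb (44307883 to 44308883) had 88.1, 99.0 and 71.0 in vehicle and 51.3, 54.6 and 55.1 in LPS. The groups did not overlap, and the limma log2 fold of -0.66 (SE 0.17, adjusted p = 0.0029) was the lowest of the locus. The site at 14.9 kb (44305286 to 44306286) had 83.6, 98.1 and 87.8 in vehicle and 60.0, 63.1 and 65.0 in LPS, and limma put the log2 fold at -0.51 (SE 0.16, adjusted p = 0.0139). It lost its call without vehicle replicate 2 (-0.44, adjusted p = 0.0755). In vehicle, the sites at 14.9 and 17.5 kb had ranks 3 and 4 of the 28, above every site upstream of the gene. In LPS the ranks were 11 and 15. On the values as deposited, neither site passed (log2 folds of -0.45 and -0.60), and both were called when the libraries were brought to a common median or quantile normalised. The other site before Ublcp1, at 37.9 kb, had a limma log2 fold of -0.23 (SE 0.18, adjusted p = 0.36).

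**Figure D2:**
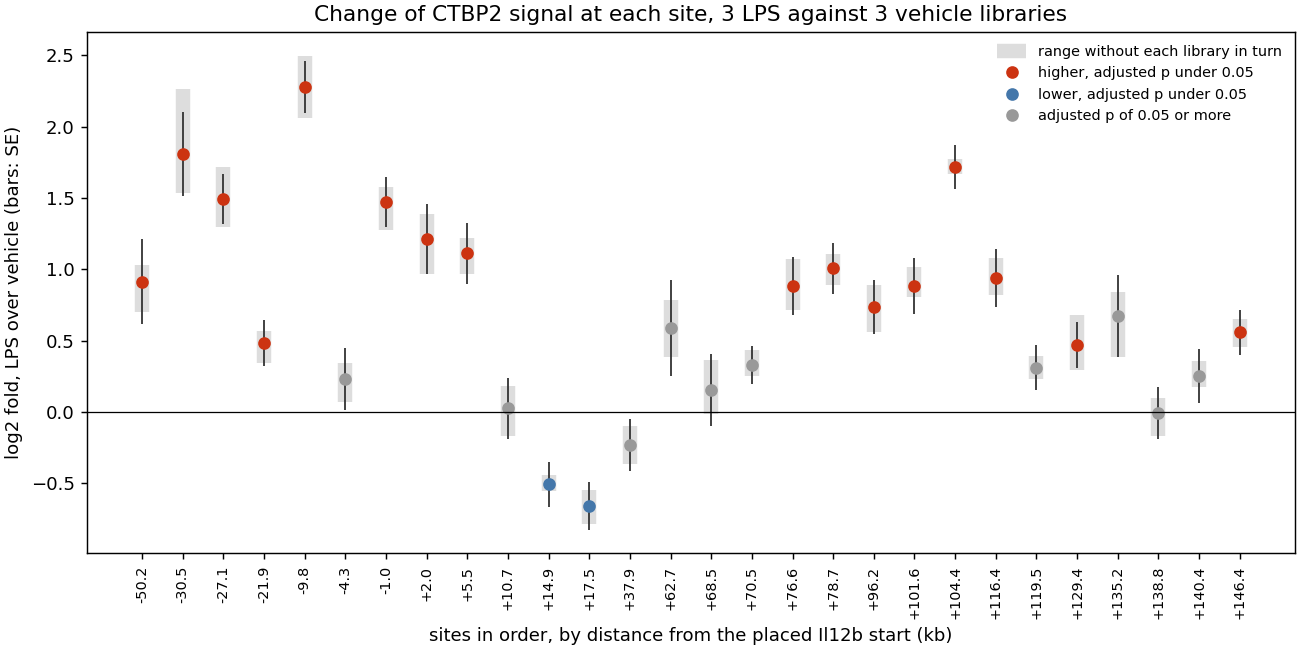
Log2 fold of LPS over vehicle at the 28 sites in order along the chromosome, with points for the limma estimate on scaled values, bars for its SE and grey bands for the range when each library is left out in turn. The fold peaks at 2.28 at -9.8 kb, is below 0 from 14.9 to 37.9 kb and is above 0.7 at every site from 76.6 to 116.4 kb.

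The Ublcp1 body, from 54.51 to 70.65 kb, held 3 sites and none passed the test in either direction (limma, 1 higher and 0 lower at an unadjusted p under 0.05). The site at its start, 70.5 kb (44360814 to 44361814), had the highest mean of the locus in both groups. It had 135, 138 and 134 in vehicle and 147, 177 and 190.4 in LPS. In LPS replicate 1 it was below the sites at 129.4 kb (204), -9.8 kb (176) and -27.1 kb (168). The groups did not overlap, yet the means of 136 ± 2.38 and 171 ± 22.0 (SD, n = 3 each) gave a limma log2 fold of 0.33 (SE 0.14, adjusted p = 0.0673). Without LPS replicate 1 it passed (0.43, adjusted p = 0.0286). The log2 folds of the sites at 62.7 and 68.5 kb, which were weak in both groups, were 0.59 (SE 0.34) and 0.15 (SE 0.25).

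Between Ublcp1 and Rnf145 all 6 sites rose, with log2 folds from 0.74 to 1.72, and at all 6 the groups did not overlap. Over all sites 16.1% rose, and all LPS libraries were above all vehicle libraries at 21.6%. The site at 104.4 kb (44394729 to 44395729) had 49.2, 47.8 and 45.7 in vehicle and 147, 170 and 160 in LPS. Its vehicle libraries were closely alike, and each LPS library stood near 3 times their level. The mean went from 47.6 ± 1.76 to 159 ± 11.2 (SD, n = 3 each), and limma put the log2 fold at 1.72 (SE 0.15, adjusted p = 1.46e-10). This was the second smallest adjusted p of the locus, at a site that lies before the placed start of Rnf145. The site at 78.7 kb (44369044 to 44370044), on the other side of the Ublcp1 start, had 33.2, 43.5 and 40.9 in vehicle and 77.5, 69.1 and 93.0 in LPS, and limma put the log2 fold at 1.01 (SE 0.18, adjusted p = 4.87e-05). The sites at 76.6, 96.2, 101.6 and 116.4 kb had log2 folds of 0.88, 0.74, 0.88 and 0.94. All 6 calls held without each single library, but on the values as deposited only the call at 104.4 kb held.

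Within the Rnf145 body, which begins at 118.73 kb, 2 of 6 sites rose, by small amounts, against 16.1% of all sites. The site at 129.4 kb had the second highest vehicle mean of the locus, 116 ± 13.8 (SD, n = 3), and a limma log2 fold of 0.47 (SE 0.16, adjusted p = 0.0272). Leaving out vehicle 1, vehicle 3, LPS 1 or LPS 2 ended the call, with log2 folds of 0.49, 0.37, 0.30 and 0.43. The site at 146.4 kb had a limma log2 fold of 0.56 (SE 0.16, adjusted p = 0.00768) and lost its call without LPS replicate 1 (0.45). The site at 119.5 kb, next to the placed Rnf145 start, had means of 73.7 ± 7.86 and 91.5 ± 9.65 (SD, n = 3 each) and a limma log2 fold of 0.31 (SE 0.16, adjusted p = 0.144). RefSeq lists more than 1 start for Rnf145. The others were not placed, so whether this site covers one of them was not examined.

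**Figure D3:**
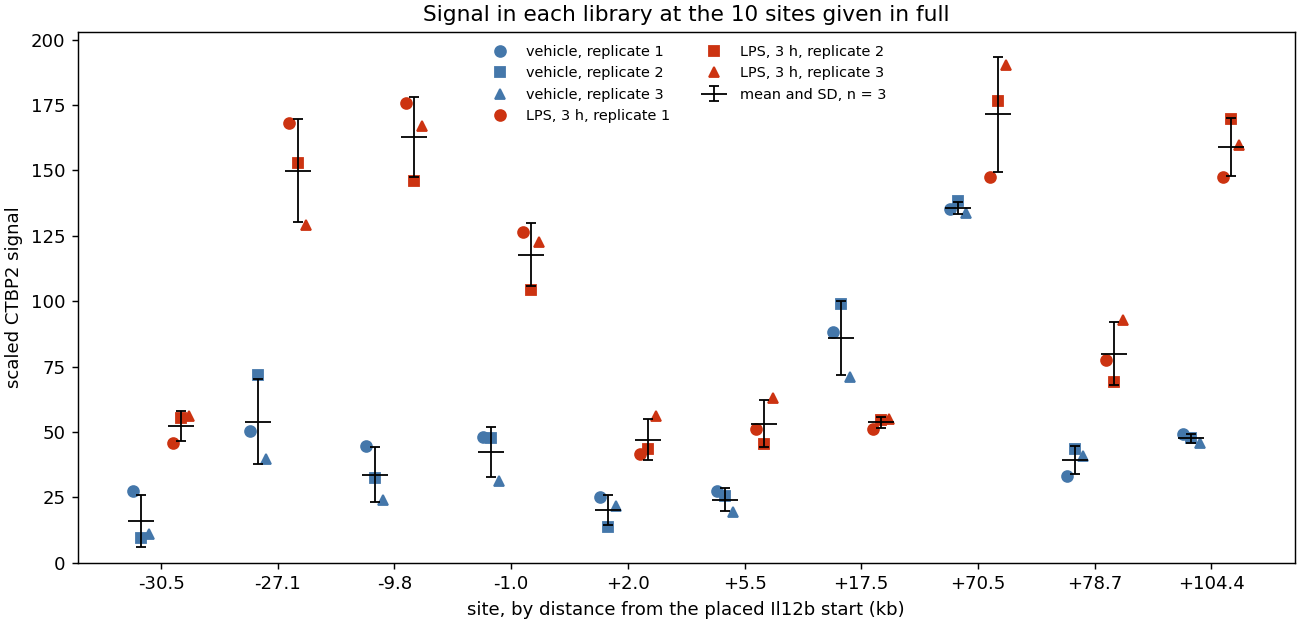
Scaled CTBP2 signal in each library (circle, square and triangle for replicates 1, 2 and 3) at 10 of the sites given in full, with black bars for the mean and SD (n = 3). The vehicle and LPS points are apart at all 10 sites, with LPS below vehicle at 17.5 kb. The 70.5 kb site at the Ublcp1 start has the highest mean in both groups, though not the highest point in LPS replicate 1. It has the smallest gap relative to its level.

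The order of sites by level changed with LPS. In vehicle the top 4 were at 70.5, 129.4, 14.9 and 17.5 kb, with means of 136, 116, 89.8 and 86.0, and none of them was upstream of the Il12b start. The libraries of the first and second did not overlap (134 to 138 against 101 to 128), and those of the third and the fourth did (83.6 to 98.1 against 71.0 to 99.0). In LPS the top 5 were at 70.5, 129.4, -9.8, 104.4 and -27.1 kb, with means of 171, 164, 163, 159 and 150.0, and their ranges over libraries overlapped one another. Summed by stretch, the upstream sites went from 266 ± 39.5 to 653 ± 32.9, the sites between Ublcp1 and Rnf145 from 209 ± 7.76 to 463 ± 27.0, and those between Il12b and Ublcp1 from 233 ± 21.0 to 165 ± 12.0 (SD, n = 3 each). The sums in Ublcp1 and Rnf145 changed less, with ratios of means of 1.26 and 1.31.

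**Figure D4:**
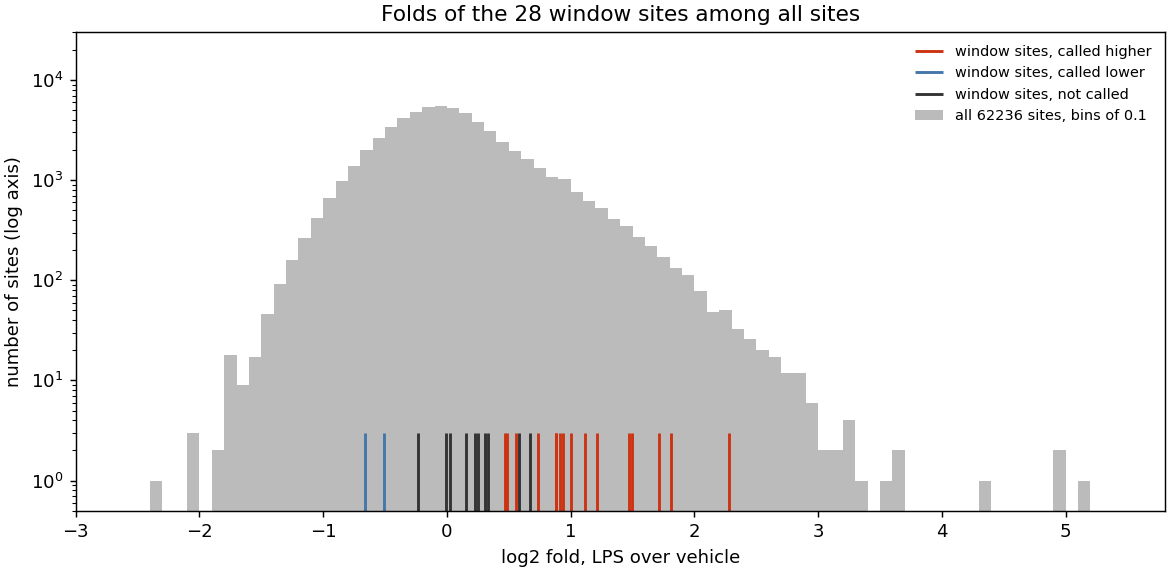
Number of sites (log axis) by log2 fold of LPS over vehicle for all 62236 sites in grey, with ticks at the 28 window sites. The window ticks run from -0.66 to 2.28 and lie mostly to the right of the median of all sites at -0.02, while the largest folds of the table, up to 5.10, belong to sites elsewhere.

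The result depended on the level given to each library. On the values as deposited, 4 of the 28 sites rose, at -30.5, -27.1, -9.8 and 104.4 kb, where 1.89% of all sites rose and 0.0482% fell. There the SE at the -9.8 kb site was 0.47 in place of 0.18, with a log2 fold of 2.34. Of all called sites 97.5% were higher on deposited values and 54.4% on scaled values. By the authors' deposited table, of the 28 sites 6 were higher at an FDR under 0.05 and 0 lower, where it has 4.01% of all sites higher and 0.37% lower (0 of the 28 were lower at its unadjusted p under 0.05). In the authors' deposited table the log2 fold at -9.8 kb was 1.98 with an FDR of 6.3e-07.

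Sites elsewhere with values most like the -9.8 kb site were found by the Euclidean distance over the 6 scaled log2 values. The 5 nearest had distances from 0.46 to 0.54 and log2 folds from 1.98 to 2.64, and this closeness was what chose them. With genes placed at the local offset, the one on chromosome 4, 149774272 to 149775272, lay in Pik3cd, which encodes a leukocyte PI3-kinase catalytic subunit. Others lay in Lpp (chromosome 16, 24584968 to 24585968), in Stk40 (chromosome 4, 126031222 to 126032222), and 1.46 kb outside Ikzf1, a lymphoid transcription factor gene (chromosome 11, 11724090 to 11725090). The nearest of all, on chromosome 11 at 4258245 to 4259245, had no protein-coding gene placed within 10 kb.

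The other genes of the interleukin-12 pathway and the factors known to act on Il12b were a list of 26. Under the symbols of the table, 17 of them had a site, and 68 of their 209 sites rose (32.5%) and 13 fell (6.22%). Those symbols are on other coordinates than the sites, so genes were also placed by their own local offset, an assignment added after the data were seen. In that way 24 genes were placed, 22 had a site in the gene body or within 10 kb of it, and 55 of 132 sites rose (41.7%) and 3 fell (2.27%), with a median log2 fold of 0.45, against 16.1%, 13.5% and -0.02 over all sites. On the values as deposited most of these calls were lost. There limma called 10 of the 209 sites higher and 0 lower, and 6 of the 132 higher and 0 lower (0 lower at an unadjusted p under 0.05 in both), against 1.89% higher and 0.0482% lower over all sites. Counts by role below are for placed genes on scaled values, with those under the table's symbols beside them. Sites listed under a symbol need not lie at that gene, so those counts only describe the labels. For no placed site were other nearby genes considered.

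Among subunit genes, 10 of 13 sites rose and 0 fell by limma (0 at an unadjusted p under 0.05), against 16.1% and 13.5% over all sites. Under the table's symbols these genes had only 2 sites, and neither was called (limma, 0 in either direction at an unadjusted p under 0.05). Il12a, whose product pairs with p40 in interleukin-12, had 2 sites and both rose. Its site on chromosome 3, 68600448 to 68601448, went from 19.5 ± 2.52 to 83.3 ± 6.92 (SD, n = 3 each), and limma put the log2 fold at 2.04 (SE 0.19, adjusted p = 6.87e-10). Il23a, the partner in interleukin-23, had 4 of 5 sites higher. The one with the smallest adjusted p had a log2 fold of 0.66 and lay 7.59 kb from the placed start. Ebi3 and Il27, which encode the chains of interleukin-27, had best log2 folds of 0.96, at a site covering the Ebi3 start, and 1.49. The Il27 site, the only 1 of 2 that was called, lay 15.2 kb from the placed Il27 start. Other genes near it were not considered.

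For the receptor genes Il12rb1 and Il12rb2, with 8 sites, the counts were near the shares of 16.1% higher and 13.5% lower over all sites. By limma 0 rose (1 at an unadjusted p under 0.05) and 1, assigned to Il12rb2, fell (log2 fold -0.50, adjusted p = 0.0422). That site lay 74.5 kb from the placed Il12rb2 start. Under the table's symbols 5 sites were listed and 0 were called in either direction by limma (0 at an unadjusted p under 0.05). Placed Il23r and Ifng had no site, and the 1 site of Tbx21, the T helper 1 factor, had a log2 fold of -0.10. Of the 28 sites of the 4 signalling kinase and STAT genes 11 rose, and under the table's symbols 5 of 17. A site at -4.48 kb from the Tyk2 start (chromosome 9, 21046675 to 21047675) went from 35.1 ± 5.89 to 259 ± 4.83 (SD, n = 3 each), a log2 fold of 2.86 (limma adjusted p = 2.82e-15), and other genes near it were not considered.

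Of the 68 sites of the 9 transcription factor genes, 27 rose (39.7%) and 2 fell (2.94%), against 16.1% and 13.5% over all sites. Each gene had at least 1 higher site, which is a low bar for a gene with many sites. Among the sites that the table's symbols list for these genes, 20 of 80 rose and 10 fell, and 6 of the 9 symbols had a higher site. Irf8, a factor of the myeloid lineage, had 1 higher and 1 lower of 7 sites when placed. The table lists 17 other-coordinate sites under its symbol, 5 lower and none higher by limma. Of those, the site with the smallest adjusted p began at 120888747 on chromosome 8. The matching placed site began at 121486527, so the symbol counts are not read as a result about Irf8. Nfkb1, which encodes an NF-kB subunit, had 9 of 26 sites higher and 1 lower when placed, and no site under the table's symbols. Its best site, with a log2 fold of 2.31, lay 86.0 kb from the placed start. Batf had 6 of 7 placed sites higher, with a best log2 fold of 1.47 at a site 26.2 kb from the placed start. Sites at the starts of Irf1 and Rel were strong before LPS and rose further, from 160 ± 24.2 to 386 ± 15.1 and from 187 ± 15.3 to 311 ± 9.56 (SD, n = 3 each), with log2 folds of 1.28 and 0.73. The last group of the list was Il10, Nfkbiz, Atf3 and Nfil3. Of its placed sites 7 of 14 rose, and under the table's symbols 43 of 105 rose and 3 fell. Nfkbiz alone held 5 of the 7 and 23 of the 43, so these counts are not a result about inhibitors of Il12b. Il10, which encodes a cytokine that restrains Il12b, had 2 of 6 sites higher with a best log2 fold of 1.05. Nfkbiz, which encodes a nuclear IkB family protein, had 5 of 8 higher, with a best log2 fold of 1.36 at 27.4 kb from the placed start. Atf3 and Nfil3 could not be placed.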

How the data were processed

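One deposited table held 62236 sites with a normalised signal per site and library for 6 libraries (3 vehicle, 3 LPS). Every signal value was a whole multiple of 1 step per column within 0.1 read, and no source used here says what set that step. The authors' deposited log2 concentration columns match the mean signal of each group within 0.000377 on the log2 scale, and the log2 fold, p-value and FDR columns are the authors' own. Per the submitters' processing notes, tools included BWA 0.7.17, MACS3 3.0.0a5 and DiffBind 3.16, and builds mm39, GRCm39 and mm10 are listed without their roles.

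Each library was scaled to the geometric mean of the 6 medians. limma 3.58.1 in R 4.3.3 (trend, robust) was fitted to log2(value + 1) over all sites, with Benjamini-Hochberg adjustment and a threshold of 0.05. Folds are on this scale and understate changes at low values. Sites given in full were, by rule, up to 8 called sites with the smallest adjusted p, the site nearest the Il12b start, the one highest in vehicle and the one with the lowest fold. The pathway rule takes up to 10 genes with a called site, but more than 10 are given above, so the naming did not follow it. Placed genes with a higher site whose folds are left out had best log2 folds from 0.37 (Cebpb) to 1.45 (Stat3). The locus, lists and rules were chosen with earlier results of these data known. No input library was analysed here. Alternatives covered scaling, pseudocount, filter, limma options, a replicate block and each library left out.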

Additional observations from a re-analysis of the deposited data

How the results depend on the processing

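The log2 fold at -9.8 kb ranged from 2.06 to 2.50 without each library and passed in all 13 alternative fits, as did the sites at -30.5, -27.1 and 104.4 kb. Of the 18 called sites, 13 were called without each single library, and the number of higher sites was 14 to 15 and of lower sites 1 to 2 in those fits. On the values as deposited 4 sites were higher and 0 lower (limma, 0 lower at an unadjusted p under 0.05), and by the authors' deposited FDR 6 and 0. At an adjusted p under 0.01, 13 were higher and 1 lower. Of the 209 pathway sites under the table's symbols, 10 were higher and 0 lower on deposited values (limma, 0 lower at an unadjusted p under 0.05). Over all sites those shares were 1.89% and 0.0482%. Without each library, 60 to 72 of the 209 were higher and 7 to 13 lower. At the measured offset, 55 of 132 were higher (41.7%) and 3 lower within 10 kb (6 and 0 on deposited values). Within 50 kb, 118 of 335 were higher (35.2%) and 9 lower (2.69%). Over all sites on scaled values, 16.1% rose and 13.5% fell. The log2 ratio of the sites at -9.8 and -1.0 kb moved by 0.70 to 0.92 without each library. The labels do not say whether replicate numbers pair the libraries. Deviations of same-numbered libraries correlated at 0.111, 0.0385 and 0.214, and those of other-numbered libraries at -0.205 to 0.148. Vehicle replicate 2 was closer to LPS replicate 1 (0.148) than to LPS replicate 2. These values do not settle whether the numbers are pairs. With the replicate block 17 sites of the locus were higher and 2 lower, and 74 and 15 of the 209 pathway sites. Shares over all sites are not given here for the block or for fits that leave a library out. Fewer lower pathway sites came without vehicle replicate 2 (8) or LPS replicate 2 (7). Placing pathway genes at the measured offset was chosen after seeing the data. The count-model alternatives on recovered reads and the 50 kb distance on annotated coordinates of the sites' build were not run, nor was quantile normalisation for the ratio.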

Other observations

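The table assigns 27 of the 28 sites to Il12b, on gene positions that differ by 109.2 kb from those of the sites at this locus. Its own distance column lists the site at 104.4 kb at -4834 bp from Il12b and the site at -9.8 kb at -118960 bp. By the measured offset the second is the closer of both to the Il12b start, and both rose.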
